A study of Homo sapiens with 6 samples.

Results

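The 10 genes described here are FLT1, HPSE, PADI3, ADAM28, TSHZ3, PTRF, NPR3, TTC29, DUSP27 and B4GALT6, taken by name from 62016 genes in each deposited table. They were chosen by their fall after knockdown of AML1-ETO, with their values under JMJD1C knockdown already known. RNA was sequenced from Kasumi-1, an established acute myeloblastic leukemia line in which AML1-ETO is expressed from a chromosomal translocation. All groups were infected for 4 days with pLKO virus: one with control shRNA, one with JMJD1C shRNA63 and one with JMJD1C shRNA95, each with 2 libraries. A further comparison by the authors set 1 library with an AML1-ETO shRNA against 1 control library, both from another series; the cells of those libraries are not described in the labels used here. Since the genes were picked with that comparison in view, its fold changes are a description and carry no test here.

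AML1-ETO joins the DNA-binding domain of the transcription factor RUNX1 to most of the corepressor RUNX1T1, and it is known both to repress and to activate genes at sites that RUNX1 can bind. Genes that need the fusion for their expression fall when it is removed. JMJD1C belongs with the KDM3 histone demethylases and carries a JmjC domain; the hairpins ask which of these genes also change when it is depleted. The 10 genes share no single pathway. Their products are cell surface receptors (FLT1, NPR3), enzymes that act outside the cell or at its surface (HPSE, ADAM28), enzymes inside the cell (PADI3, B4GALT6), a phosphatase-like protein (DUSP27), a nuclear zinc finger protein (TSHZ3), a membrane coat protein (PTRF) and a protein of the sperm tail (TTC29).

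Upstream sequences are shown for the gene with the deepest AML1-ETO fall (FLT1), for the gene that differed between the hairpins (TTC29) and for the gene in which a RUNX core motif was found (NPR3). RefSeq start windows (GRCh38.p14, 250 bases before to 50 after a start) matched 6 of the 10 genes with 9 windows: FLT1, HPSE, TSHZ3, NPR3, TTC29 and DUSP27, the last under its current symbol STYXL2. PADI3, ADAM28, PTRF and B4GALT6 had no entry. The 250 bases before each start are printed 5′ to 3′ on the strand of the gene, and capitals mark the RUNX core TGTGGT.
FLT1, chr13:28495129-28495378, minus strand: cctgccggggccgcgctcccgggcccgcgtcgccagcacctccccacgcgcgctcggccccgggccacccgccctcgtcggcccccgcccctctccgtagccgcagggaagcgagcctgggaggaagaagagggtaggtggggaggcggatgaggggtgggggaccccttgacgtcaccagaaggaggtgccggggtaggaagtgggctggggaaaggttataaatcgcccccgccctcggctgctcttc
TTC29, chr4:146945865-146946114, minus strand: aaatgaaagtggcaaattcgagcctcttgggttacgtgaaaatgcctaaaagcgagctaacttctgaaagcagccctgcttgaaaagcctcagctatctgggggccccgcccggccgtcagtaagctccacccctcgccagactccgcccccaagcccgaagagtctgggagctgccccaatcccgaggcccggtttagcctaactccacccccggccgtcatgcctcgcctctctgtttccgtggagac
NPR3, chr5:32690622-32690871, plus strand: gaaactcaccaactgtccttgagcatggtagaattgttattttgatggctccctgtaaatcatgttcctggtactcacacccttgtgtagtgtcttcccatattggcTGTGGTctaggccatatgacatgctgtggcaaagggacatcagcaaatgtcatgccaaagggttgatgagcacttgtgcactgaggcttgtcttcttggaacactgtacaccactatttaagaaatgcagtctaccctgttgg
TGTGGT or its reverse complement lay in 1 of the 9 windows, at position -143 from the first of the 2 NPR3 starts, and in 13.1% of 35116 RefSeq windows of the same length. The related core TGCGGT was in 0 of the 9 windows and in 7.29% of all. The E-box CAGCTG was found in 4 windows of HPSE, NPR3 and DUSP27, against 17.9% of all windows, and CAGGTG in 1 HPSE window, against 20.6%. Of the HPSE windows 2 overlap and share most of their bases, and the CAGCTG in both is the same site. AGATAA and CCGGAA, as bound by GATA and ETS factors, were in 0 of the 9 windows, against 10.3% and 17.2% of all windows. GC content ranged from 47.3% in the NPR3 window shown to 76% in that of TSHZ3, with a median of 63.3% against 58.7% over all windows.

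All 10 genes were expressed at moderate levels in control cells. Levels are in FPKM, fragments scaled to transcript length and to library size, and each is the authors' value for a group of 2 libraries, with no value per library. Control levels in the shRNA63 table ran from 5.44 FPKM for DUSP27 to 41.2 FPKM for ADAM28, or from percentile 30.9 to 75.6 of 14475 tested genes with at least 1 FPKM. Neither hairpin raised any of the 10 past the authors' threshold, a deposited q-value (their adjusted p) under 0.05. With shRNA63, 9 of 10 were called lower, all but DUSP27, where 2.83% of 18271 tested genes were called lower. In the libraries labelled shRNA95, 9 of 10 were called lower, all but TTC29, where 1.82% of 18006 tested genes were. The genes were picked with all 3 tables already seen, so these counts are no independent support. The median level was 37.6% of control with shRNA63 and 39.4% with shRNA95. On the scale of log2((FPKM + 1)/(FPKM + 1)) the median of the 10 was -1.32 and -1.22, while over all tested genes with at least 1 FPKM it was 0.0087 and 0.032. In these bulk samples fewer cells of a type and less RNA per cell cannot be told apart.

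**Figure D1:**
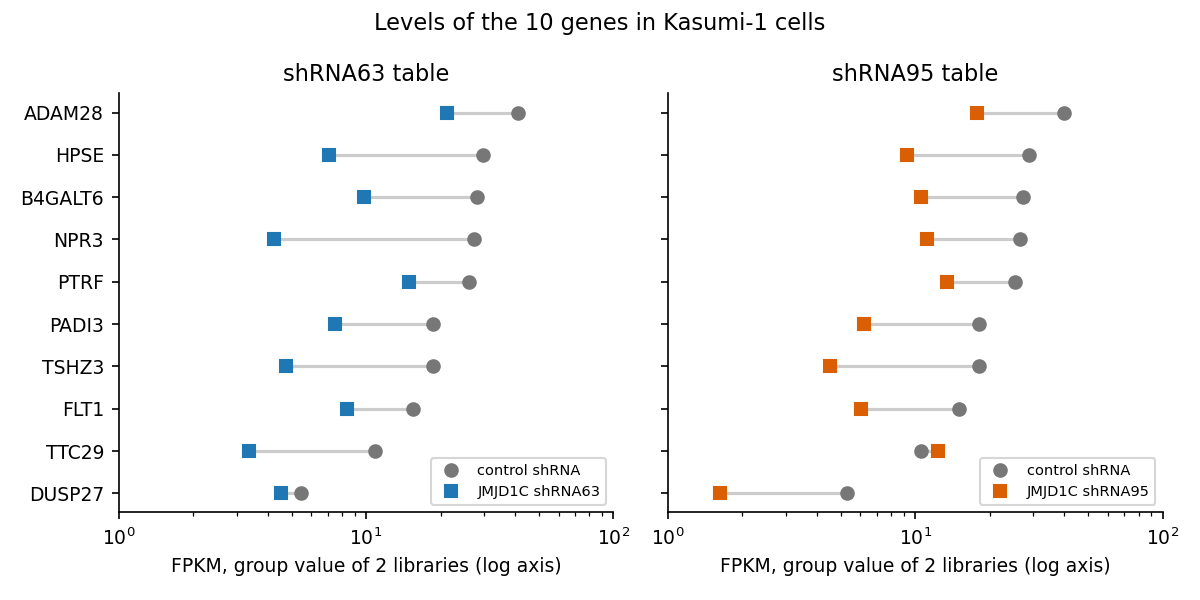
Group levels of the 10 genes in FPKM on a log axis, in control cells (gray circles) and with each JMJD1C hairpin (colored squares), 1 panel per deposited table; each point is 1 value for 2 libraries and has no error bar. All 10 genes lie lower with shRNA63, from 83.2% of control for DUSP27 to 15.5% for NPR3, and 9 lie lower with shRNA95, with TTC29 at 117%.

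The hairpin labels were checked on JMJD1C. Its mRNA was at 30.4 and 13.7 FPKM in the shRNA63 table, a call, and at 29.4 and 25.1 FPKM in the libraries labelled shRNA95, where the authors' deposited table made no call (q = 0.938). Each direction given for shRNA95 therefore rests on the label. RUNX1 and RUNX1T1, the partners of the fusion, were not called in any of the 3 tables. Their log2 fold changes with AML1-ETO shRNA were -0.86 and -1.04 in the authors' deposited table. Of the markers of a myeloblast, CD34, KIT and CD33 were at 19.8 to 245 FPKM in control cells, CD38 was at 0.406 FPKM, and MPO had too many fragments for the authors' program and was listed at 0. KIT was called lower and CD33 higher with shRNA63, and CD34 higher with shRNA95; their part in the results on the 10 genes was not tested. Of 8 endothelial markers only TIE1 reached 1 FPKM, and of 8 fibroblast and adipocyte markers none did.

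In the AML1-ETO comparison 8 of the 10 genes were called lower in the authors' deposited table, where 0.187% of 22406 tested genes were (42 genes). The set was named for its fall in this contrast, so that count is no independent support. Their falls ran from 40.8-fold for FLT1 to 9.06-fold for TSHZ3 in the authors' deposited table. NPR3 and B4GALT6 did not pass there. NPR3 stood at -1.59 on the log2 scale (error 0.996, q = 0.927) and B4GALT6 at -0.91 (error 0.42, unadjusted p = 0.146) in the authors' deposited table. A strong fall with AML1-ETO shRNA thus holds for 8 of the genes, and the other two were called lower with the hairpins alone. Of 21727 tested genes, 816 had a log2 fold change at or below that of NPR3 there, and 1968 one at or below that of B4GALT6. Each arm was a single library, so no spread between replicates stands behind these values. Errors are the absolute log2 fold change over the absolute test statistic of the authors.

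**Figure D2:**
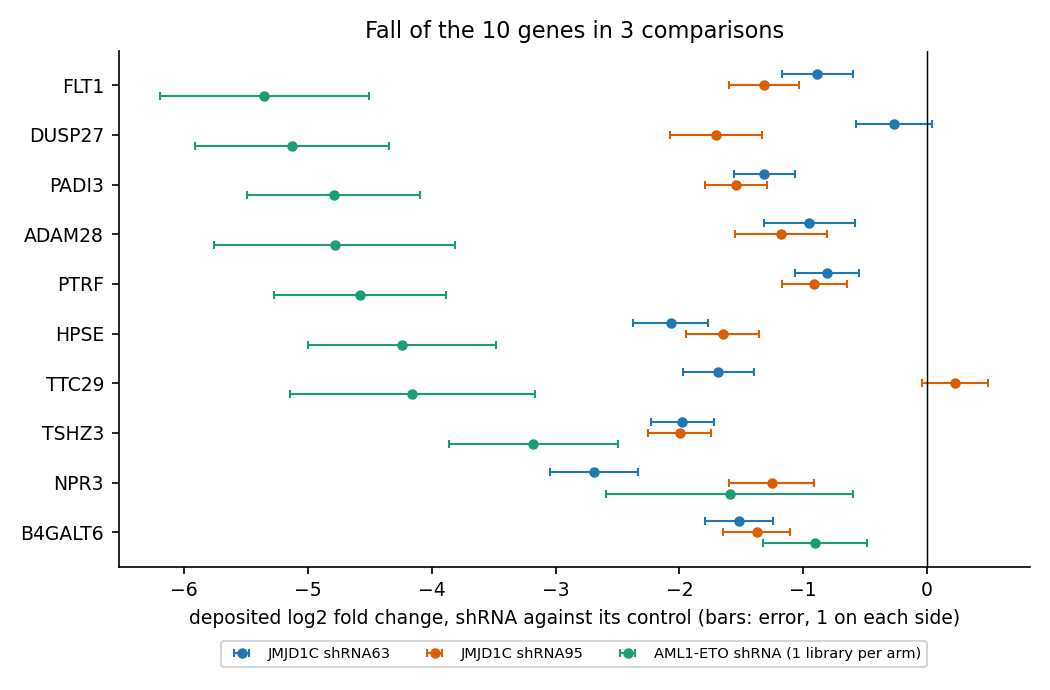
The authors' deposited log2 fold changes of the 10 genes with shRNA63, with shRNA95 and with AML1-ETO shRNA; bars extend 1 error to each side, and genes are in order of their fall in the AML1-ETO comparison. The 8 genes called in the AML1-ETO comparison lie between -5.35 and -3.18 there and between -2.07 and 0.23 with the hairpins, while NPR3 and B4GALT6 are at -1.59 and -0.91 there.

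FLT1 encodes a receptor for the growth factors VEGFA, VEGFB and PGF and is best known from blood vessel endothelium. FLT1 (ENSG00000102755; hg19 chromosome 13, 28874489 to 29069265) was at 15.5 FPKM in control and 8.41 FPKM with shRNA63, which is 54.2% of control (95% interval 36.8% to 79.9%). In the shRNA95 table it went from 15.0 to 6.05 FPKM, or 40.2% of control (27.4% to 58.9%). The authors' deposited tables called it lower with both (q = 0.00214 and q = 0.00216). These are the smallest q-values that the smallest deposited p of 5e-05 gave, and 8 of the 10 genes had them with shRNA63 and 9 with shRNA95. With AML1-ETO shRNA its value on the log2 scale of the authors' deposited table, -5.35 with an error of 0.84, was the deepest among the 10. Measured on the log2 scale, the fall with shRNA63 was 16.5% of that size and the fall with shRNA95 24.6%. TIE1, the endothelial marker above, was called lower with shRNA63, at 4.12 and 0.549 FPKM, and stood at 3.99 and 2.07 FPKM in the shRNA95 table without a call, while KDR, the main VEGF receptor of endothelium, was at most 0.0232 FPKM in any group. Over the 8 endothelial markers the summed level was 4.37 and 0.607 FPKM in the shRNA63 table and 4.24 and 2.24 FPKM in the shRNA95 table, nearly all of it TIE1, with TEK at 0 in control and PECAM1 listed only on a patch sequence. Their part in the FLT1 result was not tested. Of the other 9 VEGF receptor and ligand genes 6 were tested with shRNA63, with 1 lower and 1 higher, and 5 with shRNA95, with 1 lower. The lower gene was PGF, itself a ligand of FLT1, at 39.2% of control with shRNA63 (4.03 and 1.58 FPKM) and 42.1% with shRNA95 (3.90 and 1.64 FPKM). The higher one was NRP1, a co-receptor, which did not reach 1 FPKM. VEGFA was at 64.6 FPKM in control and 78.6 FPKM with shRNA63, without a call.

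NPR3 encodes the clearance receptor that takes up natriuretic peptides. NPR3 (ENSG00000113389; hg19 chromosome 5, 32689176 to 32791819) showed the deepest fall of the 10 with shRNA63, from 27.3 to 4.23 FPKM, or 15.5% of control (9.54% to 25.1%). In the libraries labelled shRNA95 it went from 26.5 to 11.1 FPKM, or 41.9% (26.2% to 67.1%). Both were calls in the authors' deposited tables. The fall with shRNA63 was larger than the AML1-ETO log2 fold change of -1.59 in the authors' deposited table, and that with shRNA95 was smaller, though within the AML1-ETO error of 0.996; neither difference was tested. Its locus in the tables holds 2 further short genes. One of them, AC026703.1, was listed at 5.31 and 0.406 FPKM in the shRNA63 table and was not tested, so reads of that locus may be shared. NPR2, a signalling receptor for natriuretic peptides, was at 4.29 FPKM in control and was not called with either hairpin. Of 9 relatives and partners of NPR3 only 2 were tested with shRNA63 and 3 with shRNA95, with 0 calls by the authors' Cuffdiff test and 0 at an unadjusted p under 0.05.

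HPSE encodes heparanase, which cuts the heparan sulfate chains of the cell surface and matrix. HPSE (ENSG00000173083; hg19 chromosome 4, 84213614 to 84256306) fell to 23.8% of control with shRNA63 (15.8% to 35.9%) and to 31.9% with shRNA95 (21.4% to 47.7%). Its AML1-ETO log2 fold change was -4.24 (error 0.76) in the authors' deposited table, an 18.9-fold fall. Of 22 other genes of heparan sulfate synthesis, editing and breakdown, 18 were tested with each hairpin. With shRNA95 the authors' Cuffdiff test made 0 calls among them, with 2 at an unadjusted p under 0.05. The medians of their log2 fold changes were -0.06 and -0.10 in the authors' deposited tables, against 0.0093 and 0.035 for all tested genes with at least 1 FPKM. Of 11 syndecan, glypican and serglycin genes, the core proteins that carry such chains, 3 were tested. SRGN, which encodes serglycin, rose from 53.2 to 235 FPKM in the libraries labelled shRNA95 and stood at 54.9 and 57.5 FPKM in the shRNA63 table.

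ADAM28 encodes a membrane-anchored metalloprotease found in lymphocytes and other blood cells. ADAM28 (ENSG00000042980) had the highest control level of the 10, at 41.2 FPKM, and stood at 21.3 FPKM with shRNA63, or 51.8% of control (31.5% to 85.1%, q = 0.00704 in the authors' deposited table). With shRNA95 it went from 39.9 to 17.7 FPKM, or 44.3% (26.8% to 73.3%). The AML1-ETO fall was 27.6-fold in the authors' deposited table. The hg19 locus that the tables give for it, 24151553 to 24769586 on chromosome 8, spans 5 genes, among them ADAM7 and ADAMDEC1, which were listed at 0 FPKM in all groups. Of 13 other ADAM genes 8 were tested with each hairpin. ADAM10, a widely expressed sheddase, was called lower with both; it stood at 102 and 39.1 FPKM in the shRNA63 table and at 99.2 and 44.7 FPKM in the other. ADAM12 was called lower with shRNA95 at a low level, from 1.20 to 0.467 FPKM. ADAM17, the TNF sheddase, was at 17.0 and 17.1 FPKM in the shRNA63 table.

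PADI3 encodes a peptidylarginine deiminase, an enzyme that turns arginine into citrulline and is best known from skin and hair follicles. PADI3 (ENSG00000142619; hg19 chromosome 1, 17575593 to 17610728) was at 18.6 and 7.51 FPKM with shRNA63, or 40.2% of control (28.7% to 56.4%), and at 18.1 and 6.21 FPKM with shRNA95, or 34.4% (24.4% to 48.4%). With AML1-ETO shRNA its log2 fold change was -4.79 (error 0.70) in the authors' deposited table. Of the 4 other family members PADI2 and PADI4 were tested and 0 called in any table by Cuffdiff (with shRNA63, PADI4 alone had an unadjusted p under 0.05); PADI4 was at 3.64 FPKM in control and 2.34 FPKM with shRNA63. MIR3972, a microRNA gene inside the same locus, was listed at 0 FPKM in control and at 14.4 and 15.5 FPKM with the hairpins, without a call. FPKM of very short transcripts can be unstable, and whether that applies here was not tested. Reads of the PADI3 locus may also be shared.

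B4GALT6 encodes a galactosyltransferase that makes lactosylceramide, the base of most glycosphingolipids. B4GALT6 (ENSG00000118276; hg19 chromosome 18, 29202210 to 29266786) fell to 34.9% of control with shRNA63 (24.0% to 50.8%) and to 38.6% with shRNA95 (26.6% to 55.9%). Both falls were larger on the log2 scale than the -0.91 that the authors' deposited table gave in the AML1-ETO comparison. That difference was not tested. The locus listed for B4GALT6 also holds RP11-549B18.1, at 5.67 and 3.31 FPKM with shRNA63 and 5.50 and 2.76 FPKM with shRNA95, without a call. It holds U6 as well, listed at 11.3 and 0 FPKM with shRNA63 and 11.0 and 0 FPKM with shRNA95, and not tested. Reads of that locus may be shared. B4GALT5, the other lactosylceramide synthase, was at 38.3 and 40.2 FPKM with shRNA63 and rose from 37.2 to 60.1 FPKM with shRNA95 (q = 0.00401 in the authors' deposited table). Of the 6 other B4GALT genes 0 were called lower in any table by Cuffdiff; at an unadjusted p under 0.05 there were 1 with shRNA63, 3 with shRNA95 and 0 in the AML1-ETO table, in either direction. Of 12 other genes of glycosphingolipid synthesis 11 were tested with each hairpin. B4GALNT1, which makes complex gangliosides, was called higher with shRNA63, from 3.24 to 9.23 FPKM, and B4GALT5 with shRNA95. UGCG, which makes glucosylceramide one step earlier, was at 13.3 and 9.35 FPKM with shRNA63 and was not called.

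TSHZ3 encodes a zinc finger protein of the teashirt family that regulates transcription in development. TSHZ3 (ENSG00000121297; hg19 chromosome 19, 31765851 to 31908700) had nearly the same values with both hairpins. It stood at 18.6 and 4.73 FPKM with shRNA63, or 25.4% of control (18.0% to 35.9%), and at 18.0 and 4.51 FPKM with shRNA95, or 25.1% (17.7% to 35.5%). Its AML1-ETO value on the log2 scale of the authors' deposited table, -3.18 with an error of 0.68, was the smallest among the 8 genes called there. On the log2 scale the falls with shRNA63 and shRNA95 were 62.1% and 62.8% of that size, the highest shares among those 8. TSHZ1 was at 9.44 FPKM in control and was not called, and of the 6 partner and related genes 4 were tested with 0 Cuffdiff calls in any table (with shRNA63, 1 of them had an unadjusted p under 0.05).

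PTRF, now named CAVIN1, encodes the coat protein of caveolae, small pits of the plasma membrane. PTRF (ENSG00000177469; hg19 chromosome 17, 40554470 to 40575535) had the mildest called fall of the 10 with each hairpin. It went from 26.0 to 14.9 FPKM with shRNA63, or 57.3% of control (40.3% to 81.4%), and from 25.2 to 13.4 FPKM with shRNA95, or 53.3% (37.4% to 75.9%). With AML1-ETO shRNA the fall was 23.9-fold in the authors' deposited table. Of 9 other caveola genes 5 were tested with each hairpin, with 2 called lower with shRNA63 and 1 with shRNA95. Some were scarce: CAV1 and the cavin gene PRKCDBP were listed at 0 FPKM, and CAV2 was under 0.1 FPKM in every group. The cavin gene MURC was called lower with both hairpins at a low level, at 1.51 and 0.743 FPKM in one table and 1.46 and 0.695 FPKM in the other. SDPR, another cavin gene, was called lower with shRNA63 from 0.324 to 0.0741 FPKM, and is named here although it did not reach 1 FPKM. With AML1-ETO shRNA, MURC and SDPR were at -2.27 and -2.10 on the log2 scale of the authors' deposited table, without a call.

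DUSP27, now named STYXL2, encodes an atypical dual specificity phosphatase-like protein found mainly in muscle. DUSP27 (ENSG00000198842; hg19 chromosome 1, 167063282 to 167098402) was the lowest of the 10 in control cells. It was at 5.44 and 4.53 FPKM with shRNA63, or 83.2% of control (54.9% to 126%, q = 0.731 in the authors' deposited table). In the libraries labelled shRNA95 it went from 5.27 to 1.62 FPKM, or 30.8% (18.6% to 50.9%). The AML1-ETO log2 fold change was -5.13 (error 0.79) in the authors' deposited table, after FLT1 the deepest of the 10. Of 16 other atypical phosphatase and slingshot genes 12 were tested with each hairpin and 0 were called lower by the authors' Cuffdiff test. At an unadjusted p under 0.05 there were 4 with shRNA63 and 0 with shRNA95, in either direction. DUSP23 and STYXL1 were called higher with shRNA63, from 24.5 to 36.6 FPKM and from 5.77 to 10.0 FPKM.

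TTC29 encodes a protein of the axoneme, the motor core of the sperm tail. TTC29 (ENSG00000137473; hg19 chromosome 4, 147627790 to 147867034) went from 10.8 to 3.38 FPKM with shRNA63, or 31.1% of control (21.1% to 45.9%). In the libraries labelled shRNA95 it was at 10.5 and 12.3 FPKM, or 117% (81.8% to 168%, q = 0.807 in the authors' deposited table). The AML1-ETO fall was 17.8-fold in the authors' deposited table, with q = 0.0487, the one closest to the threshold among the 8 genes called there. Of 12 other axonemal and ciliary genes 7 were tested with each hairpin, with 0 calls by the authors' Cuffdiff test and 1 and 0 at an unadjusted p under 0.05. TTC29 was called lower in the table in which JMJD1C mRNA was called lower, and DUSP27 in the one in which it was not.

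Whether a gene changed differently with the 2 hairpins was tested over 17267 genes: its deposited log2 fold changes were subtracted and divided by their joint error, and two-sided normal p-values were adjusted after Benjamini-Hochberg. It passed for 0.84% of those genes, 145 in all, and for 1 of the 10, TTC29. TTC29 differed by -1.91 on the log2 scale (shRNA63 minus shRNA95, error 0.39), with an adjusted p of 0.000375 over the 17267 genes. DUSP27 differed the other way, by 1.44 (error 0.48), with an adjusted p of 0.189 (0.00285 before adjustment). NPR3 differed by -1.44 (error 0.50), with an adjusted p of 0.234. Both comparisons share the control libraries, which makes the errors of a difference too wide. The control part was not measured and was taken to equal the hairpin part of the squared error for every gene. With that assumed part removed, 3.47% of genes passed, and TTC29, DUSP27 and NPR3 all did. Their adjusted p were then 1.65e-09, 0.00163 and 0.00267, and the passes of DUSP27 and NPR3 rest on that assumption. For the other 7 genes the intervals of the difference included 0; the narrowest, for PADI3 and TSHZ3, ran from -0.49 to 0.95 and from -0.70 to 0.74, and the widest, for ADAM28, from -0.80 to 1.25. Intervals of this width do not show that the hairpins act alike on these genes.

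**Figure D3:**
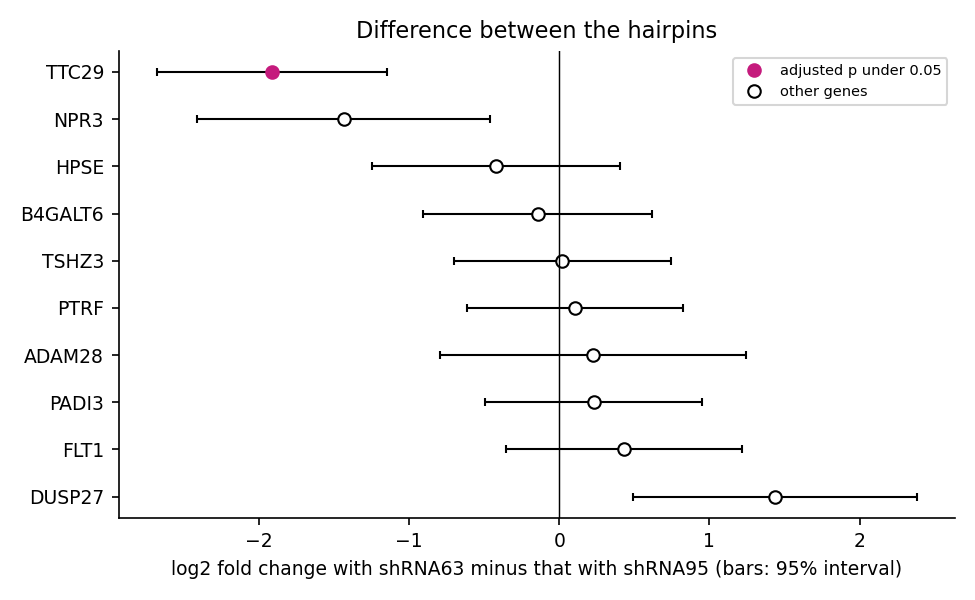
Difference of the deposited log2 fold changes, shRNA63 minus shRNA95, for each of the 10 genes, with 95% intervals that take the 2 comparisons as independent; the filled point passed the test adjusted over 17267 genes. TTC29 (-1.91) and NPR3 (-1.44) lie to the left, DUSP27 (1.44) to the right, and the intervals of the other 7 genes include 0.

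Size of fall did not follow one order in the 3 comparisons. By depth, the order with shRNA63 was NPR3, HPSE, TSHZ3, TTC29, B4GALT6, PADI3, ADAM28, FLT1, PTRF and DUSP27. With shRNA95 it was TSHZ3, DUSP27, HPSE, PADI3, B4GALT6, FLT1, NPR3, ADAM28, PTRF and TTC29. In the AML1-ETO comparison of the authors' deposited table it was FLT1, DUSP27, PADI3, ADAM28, PTRF, HPSE, TTC29, TSHZ3, NPR3 and B4GALT6. Most neighbors in these orders did not differ beyond their joint error. With shRNA63 the gap exceeded it in 2 of 9 steps, from NPR3 to HPSE and from PTRF to DUSP27. With shRNA95 it did so in 1 step, from PTRF to TTC29, and in the AML1-ETO comparison in 1, from TSHZ3 to NPR3. HPSE and TSHZ3 stood among the first 3 with both hairpins, and PTRF among the last 2.

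The 10 are a selection and not the whole set of genes lowered with AML1-ETO shRNA. Of the 42 genes called lower in the authors' deposited table, 38 had values in both libraries, and 27 of these also reached 5 FPKM in a group of a JMJD1C table. The 27 hold 8 of the 10 genes and 19 others. Of those 19, 12 had a fall deeper than TSHZ3: TM4SF1 at -6.03, SULT1C2, GLYATL2, THSD1, GAD1, MYCN, CD226, RP11-462G22.1, SERPINB9, SH3TC2, NR5A2 and SHANK3 on the log2 scale of the authors' deposited table. Next to TSHZ3 stood SHANK3 at -3.28 and NR5A2 at -3.31 on one side, and PLXNB2 at -3.16 and EDIL3 at -3.14 on the other, in the authors' deposited table.

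The other genes called lower in the AML1-ETO table were also often called lower with the hairpins. Leaving out the 8, 28 of them were tested with each hairpin. With shRNA63, 12 of the 28 (42.9%) were called lower and 1 higher, TM4SF1, against 2.83% of all tested genes called lower. In the libraries labelled shRNA95, 23 of the 28 (82.1%) were called lower and 1 higher, CD34, against 1.82%. The AML1-ETO comparison shares no library with the hairpin comparisons, while the hairpin comparisons share their control libraries, so the 2 shares are not independent of each other. Of the 19 others with at least 5 FPKM, 8 were called lower with both hairpins, among them THSD1 and CD226. Another 6 were called lower with shRNA95 and not called with shRNA63, as DUSP27 was, among them MYCN, GAD1, GLYATL2 and SULT1C2. The pattern of TTC29, lower with shRNA63 and not called with shRNA95, was seen in 0 of the 19 by the Cuffdiff calls. How many of all tested genes show each of these patterns was not counted. The counts among the 19 therefore do not show whether a pattern is common or rare for such genes.

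**Figure D4:**
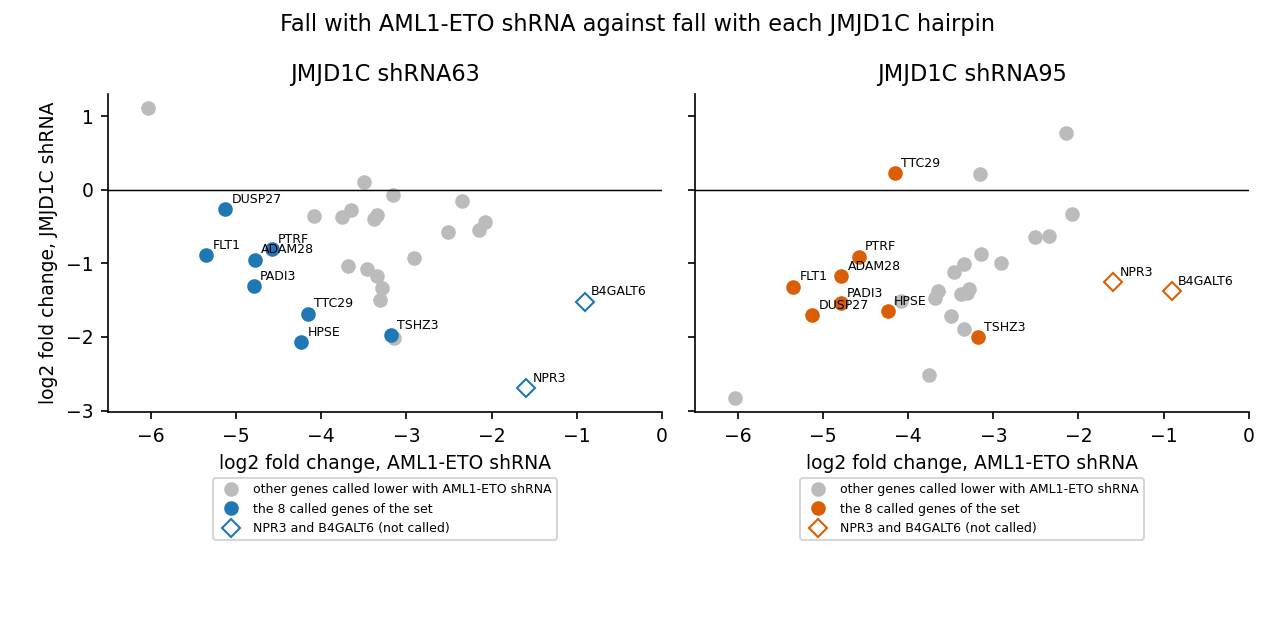
Deposited log2 fold change with AML1-ETO shRNA (horizontal) against that with each JMJD1C hairpin (vertical, 1 panel per hairpin) for 27 genes called lower with AML1-ETO shRNA and at least 5 FPKM in a JMJD1C table, plus NPR3 and B4GALT6 as open diamonds; filled colored points are the 8 called genes of the set and gray points the 19 others. With shRNA63, TM4SF1 (-6.03 and 1.11) lies far above 0, and with shRNA95, TTC29 (-4.16 and 0.23) is the filled point above 0.

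Genes whose 3 log2 fold changes were nearest to the median of the 10 (-1.42 with shRNA63, -1.34 with shRNA95 and -4.41 with AML1-ETO shRNA) were THSD1, BMX, CD226, ASAP3 and NR5A2, at Euclidean distances of 0.82 to 1.10 among 9792 genes with at least 5 FPKM in control. Within the 10, PADI3 was nearest to that median at 0.44, and B4GALT6 and NPR3 were farthest at 3.51 and 3.09. THSD1, a thrombospondin-domain membrane protein gene, had -1.03, -1.48 and -3.69 in the authors' deposited tables and was called lower in all 3. BMX, a tyrosine kinase gene, was not called in any. With 3 values per gene this likeness is a description only.

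Most relatives of the 10 genes were not called. The lists hold 128 relatives and partners, and 83 of these were tested with each hairpin. With shRNA63, 5 were called lower (6.02%, against 2.83% of all tested genes) and 4 higher (4.82%, against 2.29%). With shRNA95, 4 were called lower (4.82%, against 1.82%) and 2 higher (2.41%, against 2.59%). At an unadjusted p under 0.05 in the authors' Cuffdiff test there were 23 of the 83 with shRNA63 and 16 with shRNA95, in either direction. The median log2 fold change of the tested relatives was -0.014 with shRNA63 and -0.059 with shRNA95 in the authors' deposited tables. In the AML1-ETO comparison 88 were tested and 0 were called by Cuffdiff in the authors' deposited table, where 0.411% of all tested genes were. Of the 88, 7 had an unadjusted Cuffdiff p under 0.05. The share of all tested genes under that unadjusted p was not computed for any comparison. The unadjusted counts, here and for the single lists, therefore do not show an excess or a lack.

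**Figure D5:**
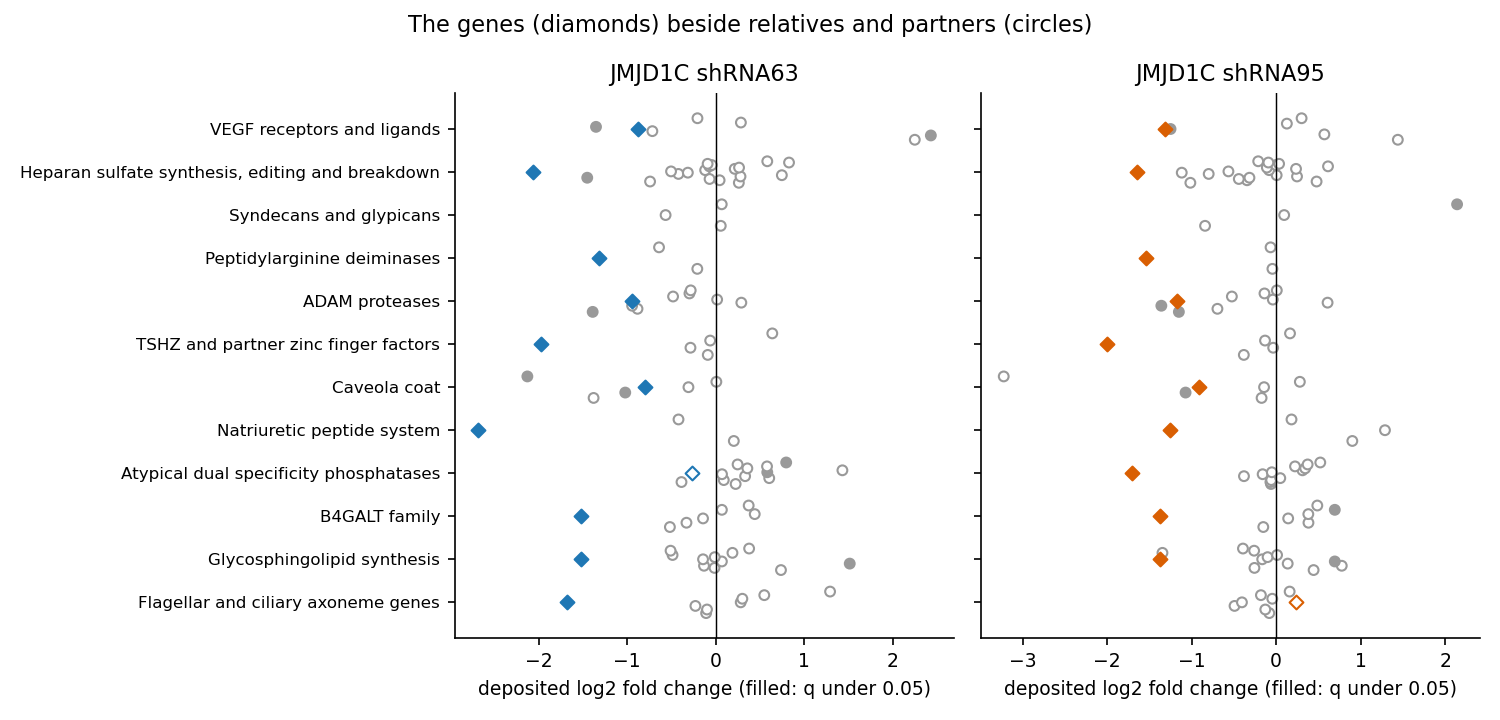
Deposited log2 fold changes of the 10 genes (diamonds) and of tested relatives and partners from 12 lists (circles), with shRNA63 and shRNA95 in separate panels; filled symbols have a deposited q under 0.05, and B4GALT6 and B4GALT5 appear in 2 lists. Most circles lie near 0, with medians of -0.014 and -0.059, while 9 of the 10 genes are filled and below 0 in each panel.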

How the data were processed

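Each of 3 tables lists 62016 genes in the layout that Cuffdiff writes, per the file headers. TopHat2 2.0.8b, Cuffdiff 2.1.1 and hg19 are named in the submitters' processing notes, with no role or order; no strand setting is stated in the labels. Values are FPKM, which the authors combined into 1 per group and scaled within each table, with log2 fold changes, a score per gene (the test statistic), p-values and q-values as deposited. A control FPKM in the shRNA63 table was 1.03 times that in the shRNA95 table at the median, so levels were compared within a table. Of the AML1-ETO table only the comparison columns were used; its 2 columns of FPKM belong to another series and were not used. Its ratios are therefore the authors' log2 fold changes.

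A gene was called where the deposited q was under 0.05 and the authors' status was OK. The error is the size of the log2 fold change over the statistic, and 95% intervals are normal ones from it. The deposited p-values imply deviates 1.42 times as large as the statistic in both JMJD1C tables (median), so at the median gene these errors are the wider reading. The smallest deposited p of 5e-05 is a floor. For genes there with a large statistic, as HPSE (-6.85) and NPR3 (-7.54) with shRNA63, errors from p are the wider ones. Errors under their 10th percentile were raised to it in the test between hairpins. Python 3.11.15, pandas 2.3.3 and scipy 1.17.1 were used. Locus starts were written 1-based.

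The members and lists were chosen with earlier results of these data known. Text names the 10 genes, called relatives with at least 1 FPKM (at most 3 per list and table), the 10 deepest other AML1-ETO calls with at least 5 FPKM and those nearest TSHZ3, the 5 nearest patterns, and JMJD1C, RUNX1 and RUNX1T1. The labels do not say whether libraries of one group are separate cultures, and the authors' p-values may then measure technical spread. Depth per library is unknown. A result on a related gene is not reported here.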

Additional observations from a re-analysis of the deposited data

Results flagged for a closer look

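TTC29 differed between the hairpins by the test of the difference itself. Its log2 fold change with shRNA63 minus that with shRNA95 was -1.91 (error 0.39, adjusted p = 0.000375 with Benjamini-Hochberg adjustment over 17267 genes), from -1.68 and 0.23 in the authors' deposited tables.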

How the results depend on the processing

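No paired analysis was possible because the tables hold 1 value per group and none per library, and for the same reason no replicate could be left out. The counts of 9 called genes with each hairpin stayed at 9 with a q-value under 0.01, with an unadjusted p under 0.05 and with at least 1 FPKM required. Median ratios of the 10 kept their direction and moved by less than the median error of a single gene among them. That error was 0.286 with shRNA63 and 0.277 with shRNA95, and it is not an error of the median. The alternatives were the other pseudocounts, the level filter and centring on all genes. The same held without NPR3 and B4GALT6, an alternative chosen after seeing the data, where the shRNA63 median went from -1.32 to -1.06. The median AML1-ETO log2 fold change of -4.41 became -4.68 without these 2 genes. The number of genes that differed between the hairpins was 1 with errors from the deposited p, and 1 without a floor on the error. It was 3 with the assumed shared control part of the error removed. With errors from the deposited p, the Benjamini-Hochberg adjusted p of the difference was 0.00783 for TTC29, 0.113 for DUSP27 and 0.638 for NPR3. Errors from p are limited by the smallest deposited p of 5e-05. Among single genes only DUSP27 with shRNA95 moved by more than its error, from -1.26 with a pseudocount of 1 FPKM to -1.64 with 0.1 FPKM and -1.70 with none. Without values per library, the depth behind each level and the spread between cultures are unknown.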
